A study of Rattus norvegicus with 6 samples.

Results

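Voltage-gated calcium and sodium channels are the membrane proteins that carry the inward currents of the cardiac action potential. In the deposited table of 17089 genes, 39 members were taken by symbol alone: 26 genes of calcium channel pore, alpha2delta, beta and gamma subunits (symbols beginning Cacna, Cacnb or Cacng) and 13 genes of sodium channel pore and beta subunits (Scn, a number, then a or b). The cells were neonatal rat ventricular myocytes, grown as primary cultures from Sprague Dawley hearts taken between postnatal day 1 and 3. They were infected on the day of isolation with adenovirus, either Ad-GFP, called GFP here, or Ad-Tbx18-IRES-GFP, called Tbx18 here, in which the transcription factor Tbx18 and GFP are read from 1 vector. All cultures thus carried adenovirus and GFP. RNA was taken on day 4 after gene transfer, with 3 libraries per group, and the study compared the Tbx18 cells, intended as induced pacemaker cells, with ventricular myocytes. The column headers of both groups also hold the words unpace and Control, which the labels do not explain. The sources used here do not say how many rats were pooled or whether each replicate had its own isolation. The p-values therefore speak to the spread of these 6 libraries, part or all of which could be technical.

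A calcium channel has 1 pore protein, which sets the current type. In L-, P/Q-, N- and R-type channels the pore is joined by a beta subunit inside the cell and an alpha2delta subunit outside it. These subunits bring the pore to the surface and tune its gating. In working myocytes the L-type pore supplies the calcium that triggers contraction, while in pacemaker cells L-type and T-type currents drive the upstroke and part of the slow depolarization before it. Sodium channels, with a pore and small beta subunits, give working and conducting myocytes their fast upstroke, and the cells in the centre of the sinus node use little sodium current.

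Levels below are normalized counts, that is, gene reads of a library divided by a size factor of that library, and are not corrected for transcript length, so they compare libraries and not genes. The libraries held 17074483 to 19800300 gene reads. Of the 39 members, 23 had a mean of at least 10 normalized counts and were tested, 16 fell below that minimum, and 3 of these were at 0 in every library. Genes with a limma adjusted p under 0.05 (Benjamini-Hochberg over 11230 genes) are called higher or lower. Among the 23 members tested 6 were called higher and 5 lower, against 22.5% and 23.5% of all genes tested, and 11 of 23 is 47.8% against 46.0% of all genes called in either direction. The number of changed channels was therefore near the background, and the results concern which members changed. The median log2 fold change was 0.19 over these 23 members and 0.01 over all genes tested. Tbx18 itself was read at 268 to 312 normalized counts in GFP and 5937 to 6236 in Tbx18. The cardiomyocyte markers were lower in Tbx18, with 5 of 6 called (Myh6, at -0.41, was not) and a median log2 fold change of -0.93, and their summed level was 581571 to 650394 in GFP and 359963 to 371769 in Tbx18. The fibroblast markers were higher, with 6 of 6 called, a median of 1.26 and a summed level of 193399 to 231719 against 376026 to 436123. In such bulk RNA, fewer cells of a type and less RNA per cell cannot be told apart, and the part of either marker shift in the channel results was not tested.

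**Figure D1:**
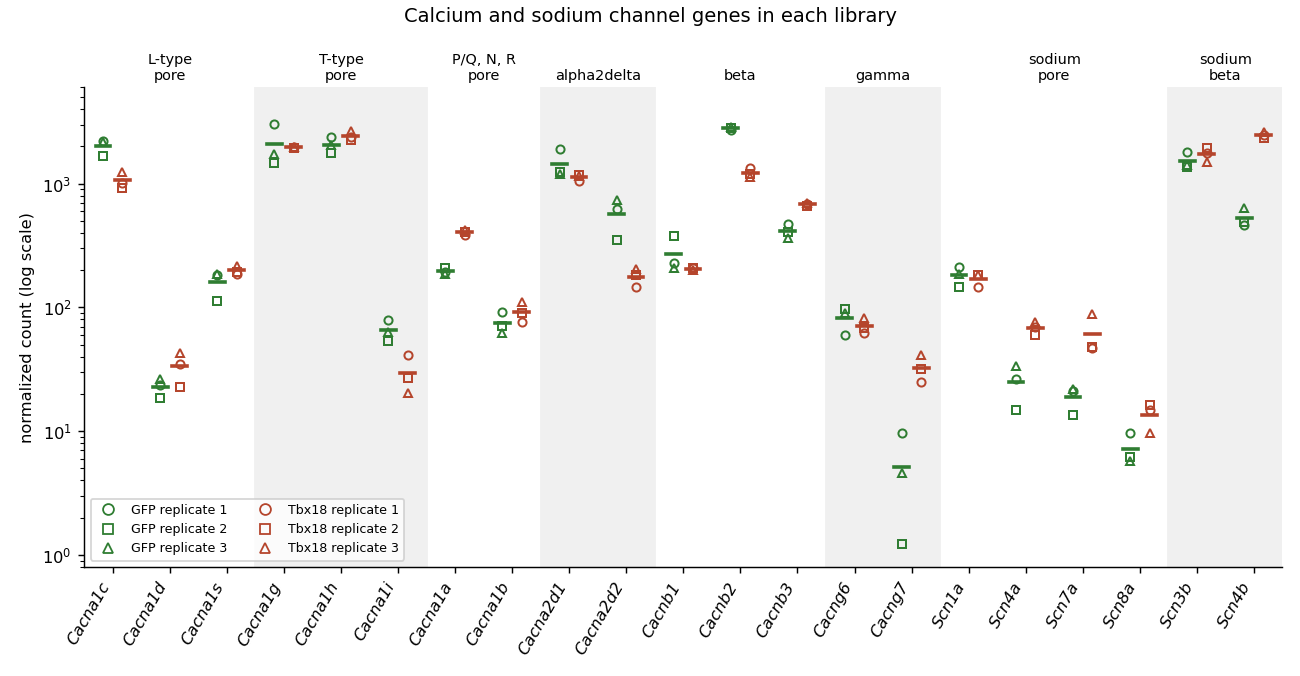
Normalized counts (log scale) of 21 tested channel genes in each of the 3 GFP (green) and 3 Tbx18 (red) libraries, grouped by subunit class; symbols give the replicate and bars the group means. Cacnb2 and Cacna2d2 sit lower and Scn4b sits higher in every Tbx18 library than in any GFP library, while Cacna1g, Cacna1h and Scn3b overlap.

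Scn4b, the sodium channel beta4 subunit, which is bound to the pore by a disulfide bridge and is mutated in a form of long QT syndrome, was higher in Tbx18. Its levels were 463, 488 and 639.8 in GFP and 2454, 2336 and 2615 in Tbx18. Every Tbx18 library was thus above every GFP library, and Scn4b rose 4.66-fold, from 530.1 ± 95.8 to 2468 ± 140 (log2 difference by limma 2.23, SE 0.12, adjusted p = 3.72e-06).

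Scn3b, which joins the pore without a covalent bond, was at 1795, 1352 and 1418 in GFP and 1767, 1923 and 1489 in Tbx18, so the groups overlapped, and it was not called (log2 fold change 0.19, 95% interval -0.11 to 0.48, limma adjusted p = 0.268). Scn3b was called higher without GFP replicate 1, its highest GFP library, at 0.31 (adjusted p = 0.0354). Scn2b held 4.603 to 8.64 counts in GFP and 5.12 to 17.6 in Tbx18 and was below the minimum for testing.

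Of the sodium pore genes, 2 rose from low levels. Scn4a, the pore of skeletal muscle, was read at 26.6, 14.8 and 33.4 in GFP and at 69.96, 59.4 and 76.4 in Tbx18, a 2.75-fold rise (log2 fold change 1.49, SE 0.30, limma adjusted p = 0.00310). Scn7a, an atypical member that senses sodium and is known from glia, was read at 21.3, 13.6 and 21.9 in GFP and at 46.9, 48.2 and 88.7 in Tbx18, a 3.24-fold rise (log2 fold change 1.61, SE 0.32, adjusted p = 0.00272). Neither gene's groups overlapped, but all 6 libraries had few reads, 12 to 87 for Scn4a and 11 to 101 for Scn7a. Markers of other cells that use these genes were measured beside them. The skeletal muscle markers Myod1, Myog and Myf5 summed to 10.6 to 23.0 in GFP and 1.84 to 4.10 in Tbx18, with Myf5 at 0 in every library. All 3 were under the minimum for testing, and Myod1 had means of 16.6 in GFP and 1.58 in Tbx18. The 4 Schwann and glia markers summed to 105 to 112 in GFP and 123 to 154 in Tbx18, with S100b called higher and Sox10, a defining factor of these cells, at 4.94 to 8.05 in GFP and 4.10 to 9.20 in Tbx18. The part of skeletal muscle cells in the Scn4a rise, and of Schwann and glia cells in the Scn7a rise, was not tested.

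Scn1a, a pore gene best known from neurons and also present in heart, was at 212, 147 and 188 in GFP and 147, 181 and 184 in Tbx18. It overlapped and was not called (log2 fold change -0.08, 95% interval -0.46 to 0.30, limma adjusted p = 0.720), and its sign was positive with equal recovered reads and without GFP replicate 1 or Tbx18 replicate 1. Scn8a, another neuronal pore gene found in myocytes, was at 9.57, 6.17 and 5.75 in GFP and 14.7, 16.4 and 9.66 in Tbx18 and passed the minimum only through the Tbx18 libraries. Its log2 fold change was 0.84 (adjusted p = 0.110), or -0.15 after quantile normalization. The pore genes of sensory neurons, Scn9a, Scn10a and Scn11a, were near 0, with at most 2 reads in any library. Scn3a, a pore gene of the embryonic brain, held 1.23 to 4.26 counts in GFP and 6.44 to 15.4 in Tbx18, without overlap, and was not tested. The brain pore gene Scn2a is listed in the table under an older symbol, Scn2a1, and so is no member by the symbol rule. It was at 11.1 to 51.1 in GFP and 66.3 to 100.1 in Tbx18 (log2 fold change 1.75, SE 0.45, adjusted p = 0.0107).

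Shares of counts within a class do not depend on library scaling. Scn4b took 10.7 ± 2.20% of the normalized counts of the sodium beta subunit genes in GFP and 35.0 ± 2.13% in Tbx18 (SD, n = 3), so its share of the class was larger in Tbx18 as well.

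In the RefSeq gene order of the assembly GRCr8, Scn4b follows Scn2b with no protein-coding gene between them. Scn2b held few reads, 4 to 20 per library. RefSeq promoter windows (250 bases before a start) were found for 26 of the 39 members. The start used can lie inside the annotated gene. The windows of Cacna1a, Cacna1e, Cacnb3, Cacng2, Cacng5, Cacng6, Scn8a and Scn10a had no base upstream of it, and others were upstream only in part. Motif counts are of whole windows and so include stretches inside genes. Motifs were searched on both strands, and no motif contains another. None of the 26 windows held the T-box core AGGTGT, which occurs in 11.4% of 27457 RefSeq promoter windows of that length. The GC box GGGCGG was in 13 of the 26 and in 32.4% of all windows. The GATA core AGATAA was in 2 (Cacna2d1 and Cacng2) and in 10.0% of all windows. The Nkx2-5 core CAAGTG was in 3 (Cacna2d3, Cacng3 and Scn10a) and in 11.7% of all windows. The TATA box TATAAA was in 2 (Cacna1s and Cacng2) and in 13.1% of all windows. No match says only that these letters are not in the window. The neighbours Scn4b and Scn2b are printed because they share a locus and only Scn4b passed the minimum count, and Cacna1c and Cacnb2 because they fell together. Each sequence is 5′ to 3′ on the gene's strand and is cut to the bases that lie upstream of the whole annotated gene (250 for Scn4b and Scn2b, 66 for Cacna1c and 132 for Cacnb2), and none is in capitals, since none of these stretches held any of the 5 motifs.
Scn4b, chr8:54343623-54343872, plus strand: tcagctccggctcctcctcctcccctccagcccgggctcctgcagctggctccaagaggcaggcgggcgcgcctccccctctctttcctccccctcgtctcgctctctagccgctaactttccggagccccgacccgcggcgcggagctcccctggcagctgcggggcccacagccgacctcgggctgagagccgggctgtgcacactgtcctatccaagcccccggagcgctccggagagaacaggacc
Scn2b, chr8:54322133-54322382, plus strand: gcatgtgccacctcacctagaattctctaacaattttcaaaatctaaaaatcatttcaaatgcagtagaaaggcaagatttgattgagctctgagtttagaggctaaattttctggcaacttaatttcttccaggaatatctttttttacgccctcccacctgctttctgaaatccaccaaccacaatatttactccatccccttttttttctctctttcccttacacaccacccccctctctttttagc
Cacna1c, chr4:154051933-154051998, minus strand: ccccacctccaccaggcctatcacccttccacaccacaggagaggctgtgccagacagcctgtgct
Cacnb2, chr17:82472965-82473096, plus strand: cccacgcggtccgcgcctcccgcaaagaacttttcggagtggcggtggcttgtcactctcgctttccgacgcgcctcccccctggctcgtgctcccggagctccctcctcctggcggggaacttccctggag
The Scn4b window was 71.6% G or C and that of its neighbour Scn2b 38.8%, with a median of 52.0% over all windows. The whole windows of Cacna1c and Cacnb2 were 54.4% and 73.2% G or C. The whole Cacnb2 window held 2 GC boxes, both outside the printed stretch, and the whole Cacna1c window held none of the motifs.

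Among L-type pore genes 1 of 3 tested fell, and among T-type pore genes 1 of 3 fell, in neither class with any called higher. Cacna1c, the L-type pore of working myocardium, had normalized counts of 2214, 1673 and 2182 in GFP and of 1014, 918 and 1251 in Tbx18. The groups did not overlap, and Cacna1c fell 1.91-fold, from 2023 ± 303 to 1061 ± 171 (limma log2 difference -0.93, SE 0.14, adjusted p = 0.000588). The cardiomyocyte markers had a median log2 fold change of -0.93 and ran from -1.35 (Tnnt2) to -0.41 (Myh6). The part of that marker shift in the Cacna1c fall was not tested. Cacna1d, the L-type pore that opens at more negative voltages and contributes to sinus node pacemaking, was at 23.4, 18.5 and 26.5 in GFP and 34.98, 22.5 and 43.0 in Tbx18. Its groups overlapped and it was not called (log2 fold change 0.50, 95% interval -0.18 to 1.19, adjusted p = 0.204), and its value was -0.08 after quantile normalization. Cacna1s, the L-type pore of skeletal muscle, was at 182, 112 and 186 in GFP and 185, 195 and 217 in Tbx18. It too overlapped and was not called (log2 fold change 0.34, adjusted p = 0.186), but was called higher with equal recovered reads, at 0.61. Cacna1f, the retinal L-type pore, had at most 2 reads in a library.

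Of the T-type pores, the pair known from the heart did not pass the test. Cacna1g was at 3017, 1473 and 1748 in GFP and 1987, 1934 and 1989.9 in Tbx18. GFP replicate 1 stood above all other libraries, and the 3 Tbx18 libraries lay between it and the remaining GFP libraries. The log2 fold change was -0.01, with a 95% interval from -0.49 to 0.47 (limma adjusted p = 0.980). Without GFP replicate 1 it was 0.30 and called higher (adjusted p = 0.0200), so this library decides the Cacna1g result; over the alternatives adjusted p ran from 0.0200 to 0.987. Cacna1h was at 2365, 1764 and 2069 in GFP and 2377, 2258 and 2683 in Tbx18, overlapping by the first GFP library (log2 fold change 0.25, 95% interval -0.01 to 0.51, adjusted p = 0.110). It was called higher without GFP replicate 1, at 0.35 (adjusted p = 0.0155), and with upper-quartile scaling, equal recovered reads or quantile normalization, at 0.32, 0.51 and 0.39 (adjusted p over all alternatives from 0.00905 to 0.324). Cacna1i, a T-type pore best known from the thalamus, fell from 79.8, 53.1 and 63.3 to 41.4, 26.6 and 20.2, a 2.22-fold fall without overlap at 23 to 75 reads per library (log2 fold change -1.17, SE 0.29, adjusted p = 0.00937).

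**Figure D2:**
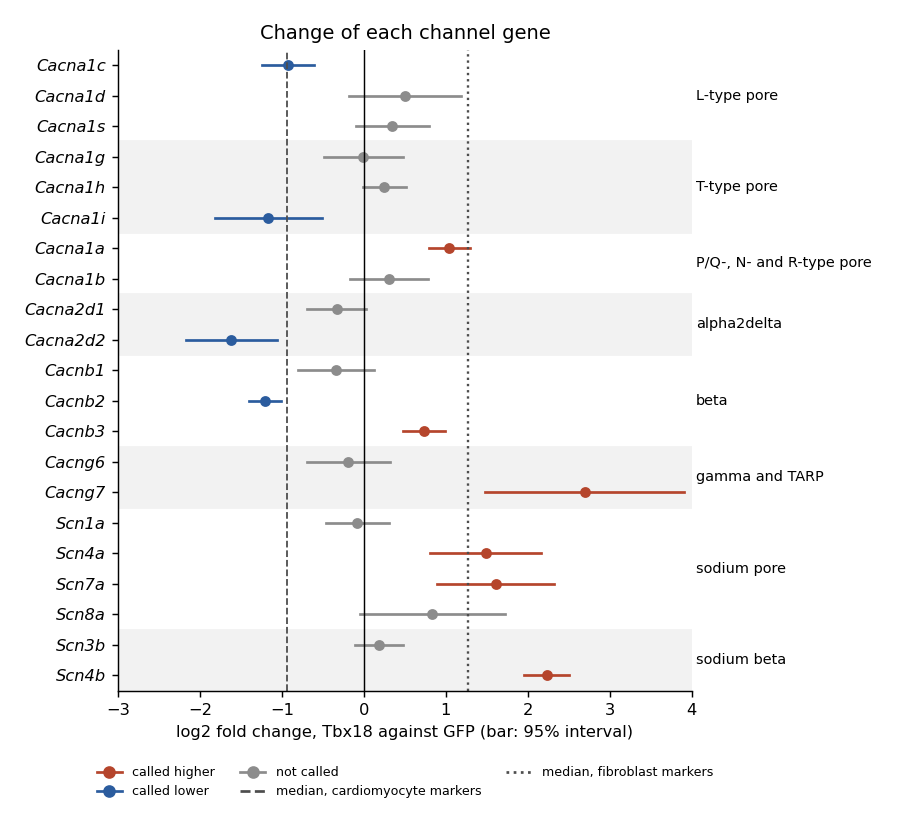
Log2 fold change of 21 tested channel genes, Tbx18 against GFP, each with its 95% interval from limma; colours mark genes called higher or lower, the dashed line marks the median change of the cardiomyocyte markers (-0.93) and the dotted line that of the fibroblast markers (1.26). Cacna2d2 lies left of the cardiomyocyte median, Cacna1c lies on it, and the intervals of Cacna1g, Cacna1h and Scn3b include 0.

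Within each library the T-type counts were higher relative to the L-type counts in Tbx18. The ratio of Cacna1g, Cacna1h and Cacna1i together to Cacna1c and Cacna1d together was 2.44, 1.94 and 1.76 in GFP and 4.20, 4.49 and 3.63 in Tbx18. The groups did not overlap, and the ratio was 2.01-fold higher in Tbx18. Fold differences of ratios and their tests are on the scale of normalized counts plus 1. With 3 libraries against 3, the 2-sided exact permutation test cannot give a p below 0.10, which it gave for this ratio (0.122 after Benjamini-Hochberg adjustment over the 11 ratios computed). The ratio of Cacna1d to Cacna1c, the sinus node form to the working form, was 0.0106, 0.0111 and 0.0121 in GFP and 0.0345, 0.0246 and 0.0344 in Tbx18, a 2.70-fold difference. Cacna1d held only 15 to 49 reads per library. No gene in the upper part of either ratio was called higher, while Cacna1c in the lower part was called lower. The ratio of Cacna1h to Cacna1g was 0.784, 1.20 and 1.18 in GFP and 1.20, 1.17 and 1.35 in Tbx18 and overlapped (exact permutation p = 0.50). Of the 7 ratios described, 5 did not overlap between groups, each at the smallest exact p of 0.10. For single genes, 57.2% of all genes tested did not overlap.

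**Figure D3:**
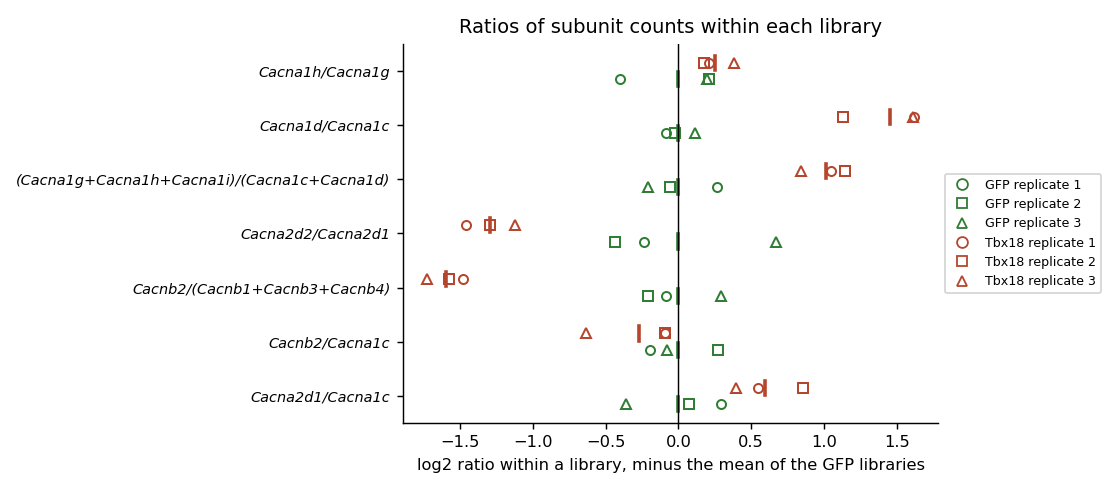
Log2 ratio of subunit counts within each library, with nothing added to the counts, minus the mean of the 3 GFP libraries, for 7 ratios; symbols are single libraries (GFP green, Tbx18 red) and bars are group means. The ratio of Cacnb2 to the other beta genes lies lower and that of Cacna1d to Cacna1c higher in every Tbx18 library, and the Cacna1h to Cacna1g and Cacnb2 to Cacna1c ratios overlap.

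Of the calcium channel beta subunits, 1 rose and 1 fell of 3 tested. Cacnb2, the main beta subunit of heart, was at 2703, 2817 and 2881 in GFP and 1328, 1201 and 1124 in Tbx18, which is a fall of 2.30-fold (log2 fold change -1.20, SE 0.09, limma adjusted p = 1.24e-05). Cacnb3, a beta subunit known from brain and smooth muscle, was at 469, 405 and 361 in GFP and 686, 657 and 697 in Tbx18 and rose 1.65-fold (log2 fold change 0.73, SE 0.11, adjusted p = 0.000709). Neither gene's groups overlapped. Cacnb1, the skeletal muscle beta subunit, was at 227, 380.4 and 208 in GFP and 208, 209 and 200.1 in Tbx18 and was not called (log2 fold change -0.35, 95% interval -0.81 to 0.12, adjusted p = 0.198). Cacnb4 was at most 6 reads in any library. Cacnb2 took 80.4 ± 2.78% of the beta subunit counts in GFP and 57.7 ± 2.08% in Tbx18, and Cacnb3 took 11.8 ± 1.74% and 32.3 ± 1.89%. The ratio of Cacnb2 to the other beta genes was 3.88, 3.58 and 5.06 in GFP and 1.48, 1.38 and 1.25 in Tbx18. The ratio of Cacnb2 to Cacna1c, by contrast, overlapped, at 1.22, 1.68 and 1.32 in GFP and 1.31, 1.31 and 0.898 in Tbx18 (exact permutation p = 0.40). The smooth muscle markers, of which 2 of 4 were called higher (Myh11 and Tagln) and 1 lower (Cnn1), summed to 71503 to 107645 in GFP and 109180 to 118963 in Tbx18, and their part in the Cacnb3 rise was not tested.

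Cacna2d2, an alpha2delta subunit best known from the cerebellum, was at 622, 352 and 732 in GFP and 145, 183 and 204 in Tbx18. The GFP libraries differed widely among themselves but all lay above the Tbx18 libraries, and Cacna2d2 fell 3.20-fold (log2 fold change -1.62, SE 0.25, limma adjusted p = 0.000630). Cacna2d1, an alpha2delta subunit that binds gabapentin, was at 1914, 1241 and 1201 in GFP and 1045, 1172 and 1160.4 in Tbx18. The groups did not overlap, yet the gene was not called (log2 fold change -0.33, 95% interval -0.70 to 0.03, adjusted p = 0.117). The ratio of Cacna2d2 to Cacna2d1 was 0.325, 0.284 and 0.609 in GFP and 0.139, 0.156 and 0.175 in Tbx18. That of Cacna2d1 to Cacna1c was 0.864, 0.742 and 0.551 in GFP and 1.03, 1.28 and 0.928 in Tbx18, so the groups of both ratios were apart. Cacna2d3 was under the minimum. Cacna2d4, an alpha2delta form best known from the retina, was at 2.13, 0 and 0 in GFP and 8.28, 15.4 and 18.4 in Tbx18, also under the minimum. With no filter on low values it was called higher (log2 fold change 3.29, limma adjusted p = 0.000958), as were Cacna1e, Cacng4 and Scn3a. The members called higher went from 6 of 23 tested to 10 of 36 tested. The share of all genes tested called higher went from 22.5% to 20.7%.

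Of the P/Q-, N- and R-type pore genes, 1 of 2 tested rose. Cacna1a, the P/Q-type pore of nerve terminals, was at 191, 209.9 and 186 in GFP and 388, 404 and 421 in Tbx18, a rise of 2.06-fold with tight groups (log2 fold change 1.04, SE 0.11, limma adjusted p = 9.17e-05). Cacna1b, the N-type pore, was at 91.5, 70.4 and 62.1 in GFP and 76.4, 90.2 and 110.6 in Tbx18 and overlapped (log2 fold change 0.31, adjusted p = 0.264; -0.02 after quantile normalization). Cacna1e, the R-type pore, was at 2.13, 0 and 2.30 in GFP and 11.97, 9.22 and 10.5 in Tbx18, under the minimum. The neuron markers summed to 141 to 180.3 in GFP and 255 to 272 in Tbx18. Prph, a filament gene of peripheral neurons, and Stmn2 were called higher, while Snap25, Elavl3, Elavl4 and Th were under the minimum, with Elavl3 at 0 to 1.06 in GFP and 1.76 to 3.68 in Tbx18. The part of neurons in the Cacna1a rise was not tested.

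The gamma class holds modulators of calcium channels and proteins that guide AMPA receptors. Cacng7, of the latter kind, was at 9.57, 1.23 and 4.603 in GFP and 24.9, 31.8 and 41.3 in Tbx18 and was called higher (log2 fold change 2.69, SE 0.54, limma adjusted p = 0.00302). It had 1 to 47 reads per library and passed the minimum only through Tbx18, so it could enter the test only by being higher there. Cacng6, whose protein reduces T-type current, was at 59.6, 97.6 and 89.8 in GFP and 62.6, 67.6 and 82.5 in Tbx18 and overlapped (log2 fold change -0.19, adjusted p = 0.519). Cacng1, the gamma subunit of skeletal muscle, Cacng2 and Cacng5 were at 0 in every library, and Cacng3, Cacng4 and Cacng8 had at most 6 reads.

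The scaling of the libraries matters for the genes with small changes. With libraries scaled to equal recovered reads, the median over all genes tested moved on the log2 scale from 0.01 to 0.27. The count of members called higher then went from 6 to 11, with Cacna1h, Cacna1s, Scn3b and Scn8a among those joining, and the 5 called lower were the same as before. Over all genes tested the share called higher went from 22.5% to 42.5% under this scaling and the share called lower from 23.5% to 12.03%. Relative to that shift, Cacna1g at 0.26 lay near the median of all genes. The signs of Cacna1g, Cacng6 and Scn1a turned under this scaling, and none of these genes was called with the deposited scaling. All 11 called members kept their direction and their call in every alternative in which they were tested; Cacna1i, Cacng7, Scn4a and Scn7a were not tested with a minimum mean of 50, where 3 members were called higher and 4 lower. Of all genes tested with that minimum, 21.1% were called higher and 25.8% lower. Without GFP replicate 1, 9 members were called higher and 5 lower, against 25.6% and 26.4% of all genes tested.

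**Figure D4:**
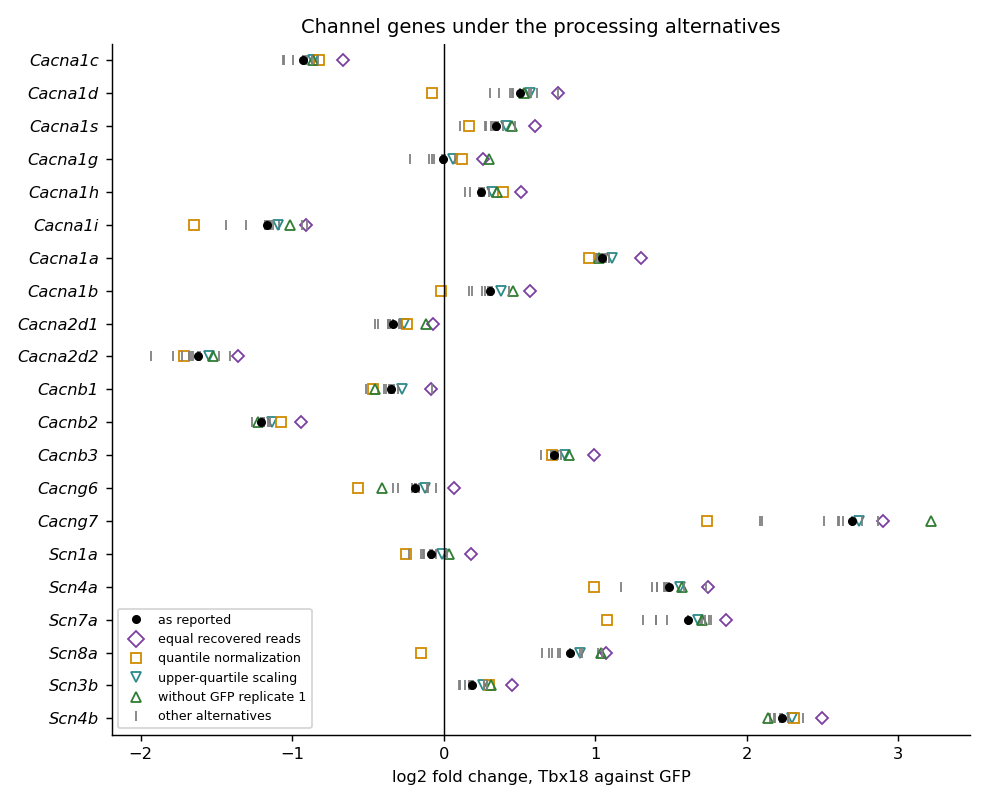
Log2 fold change of 21 tested channel genes as reported (black) and under the processing alternatives, with 4 of them marked by colour and shape. Scn4b, Cacnb2, Cacna2d2 and Cacna1a keep clear of 0 throughout, while Cacna1b, Cacna1d, Cacna1g, Cacng6, Scn1a and Scn8a have values on both sides.

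Proteins that bind and regulate these channels were examined from lists chosen for their roles. Of 37 symbols 35 were in the table and 33 were tested, with 8 called higher and 13 lower, that is 63.6% in either direction. Of all genes tested 22.5% were called higher, 23.5% lower and 46.0% in either direction. The median log2 fold change of the partners was -0.13, against 0.01 for all genes. With equal recovered reads 14 of the 33 were called higher and 6 lower, where 42.5% and 12.03% of all genes tested were. Without Tbx18 replicate 3, 3 were called higher, against 17.1% of all genes tested. Without Tbx18 replicate 1 there were 5, against 16.96%. The RGK GTPases, small G proteins that inhibit L-type channels through the beta subunit, split: Gem fell 2.71-fold from 500.2 ± 207 to 184 ± 13.8 and Rrad fell 2.39-fold from 3636 ± 929 to 1523 ± 194 (limma adjusted p = 0.00405 and 0.000387). Rem2 rose 1.70-fold (adjusted p = 0.0255), a call that was lost without any 1 of the Tbx18 libraries, without GFP replicate 1, in DESeq2 and after quantile normalization (adjusted p over the alternatives from 0.00500 to 0.458). Rem1 was also called higher, and that call too was lost without any 1 of the Tbx18 libraries, without GFP replicate 1 or 3 and after quantile normalization. Of 15 calcium channel regulators tested, 5 rose and 5 fell. Bin1, which shapes transverse tubules and delivers L-type channels to them, rose 1.94-fold, and Akap5, an anchor of protein kinase A, rose 1.71-fold (adjusted p = 0.000112 and 0.00355).

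Of 14 tested partners of the sodium channel, 6 fell and 1 rose, where 23.5% of all genes tested fell and 22.5% rose. With equal recovered reads 3 were called lower and 4 higher, where 12.03% and 42.5% of all genes tested were. Of the FGF homologous factors, which bind the end of the pore protein, 2 of 3 tested fell and 0 rose. Fgf13 went down 1.47-fold, from 576 ± 25.6 to 392 ± 40.7 (limma log2 difference -0.56, adjusted p = 0.00262), and this call was lost with equal recovered reads (-0.29, adjusted p = 0.0511). Fgf11 fell from 28.8 ± 10.5 to 5.16 ± 3.89 and passed the minimum only through GFP. Of 11 sodium channel scaffold genes tested, 4 fell and 1, Cask, rose. Rangrf, which helps bring the cardiac sodium channel to the surface, fell 1.81-fold, Ywhah, a 14-3-3 protein, 1.59-fold, and Ank3, which encodes ankyrin-G, 1.41-fold (adjusted p = 0.000766, 0.000239 and 0.00514). The Ank3 call was lost with equal recovered reads (adjusted p = 0.145). Rest, the repressor of neuronal genes including sodium channel genes, was at 830.2 ± 105 and 957 ± 94.97 and was not called (adjusted p = 0.177), but was called higher with equal recovered reads.

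**Figure D5:**
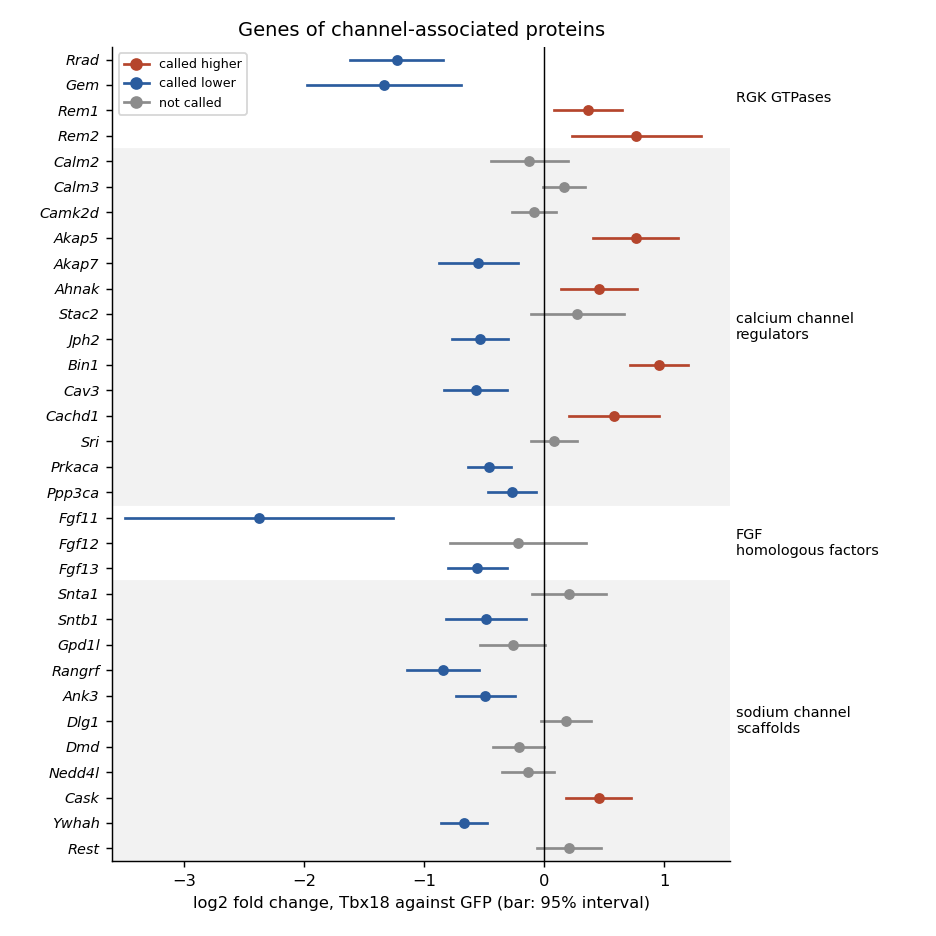
Log2 fold change with 95% interval of 32 tested genes of channel-associated proteins in 4 lists, Tbx18 against GFP; colours mark genes called higher or lower. The RGK GTPases split, with Rrad and Gem on the lower side and Rem1 and Rem2 on the higher side, and 6 of the 14 tested sodium channel partners are called lower and 1 higher, or 3 lower and 4 higher with equal recovered reads. Of all genes tested 23.5% are called lower and 22.5% higher, or 12.03% and 42.5% with equal recovered reads.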

How the data were processed

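RNA from 6 cultures was analysed, 3 per group. Per the labels' protocols, cultures were kept in 10% serum for the first 2 days and 2% thereafter, and 100 ng of total RNA went into each stranded mRNA library, sequenced from both ends over 101 bp. DESeq2 1.10.1, HTSeq, STAR 2.4.0g1 and bcl2fastq 2.17.1.14 are listed, per the submitters' processing notes. Which build, annotation and strand setting were used is not given in the sources used here. Reads of close paralogs may have been split. The deposited signal is, by the name it was deposited under, DESeq2-normalized counts. Every value was a whole multiple of 1 step per library (100% within a tolerance of 0.01), which gave the read counts.

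Log2 of the normalized count plus 1 was fitted with limma 3.58.1 (R 4.3.3) with an intensity trend, over 11230 genes with a mean of at least 10. Ratios used a pseudocount of 1 and an exact permutation test over libraries. Alternatives covered pseudocounts, filters, scalings, limma settings, 2 count models of the recovered reads (DESeq2 1.42.0 and edgeR 4.0.16), the replicate number as block, and each library left out. The fit was tested on simulated counts. The members and lists were chosen with earlier results of these data known. The rule named all tested members and, of each partner list, the 3 called genes with the largest change, but some of these genes are not reported here, while counts cover them; Rem1, Cask, Rest, Scn2a1 and genes named as exceptions were chosen after their values were seen. Promoter windows are from RefSeq (GRCr8).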

Additional observations from a re-analysis of the deposited data

How the results depend on the processing

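The 11 channel genes called were called in the same direction under every alternative in which they were tested, edgeR and DESeq2 included. Each of these count models called 6 members higher and 5 lower. Cacng7, among the 11, passed the minimum mean of 10 only through Tbx18, so with that minimum its direction was set by its entry. The number called higher, 6, was 3 with a minimum mean of 50, 10 with no filter and 11 with equal recovered reads, and ran from 6 to 9 with 1 library left out. Partner genes called higher, 8, were 14 with equal recovered reads and 3 to 7 with 1 library left out. Those called lower, 13, were 6 with equal recovered reads. Of all genes tested 22.5% were called higher, or 42.5% with equal recovered reads and 16.96% to 25.6% with 1 library left out. The share of all genes tested called lower was 23.5%, or 12.03% with equal recovered reads. A minimum mean of 50 tests fewer genes and no filter tests more; the cause of the other moves was not tested.

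Signs turned only among genes that were not called. Under quantile normalization Cacna1b was at -0.015, Cacna1d at -0.076 and Scn8a at -0.15, and Cacna1g was at 0.12. With equal recovered reads Cacna1g was at 0.26, Cacng6 at 0.070 and Scn1a at 0.18. Cacna1g was at 0.064 with upper-quartile scaling and at 0.076 with library weights. Leaving out 1 library, Cacna1g ran from -0.22 to 0.30, with 0.0058 without Tbx18 replicate 2, and Scn1a from -0.23 to 0.035 (without GFP replicate 1). The cause was not tested.

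With the replicate number as a block, 6 members were called higher and 5 lower, and 8 and 13 partner genes, the same counts as without it. The labels do not say what a number marks. Deviations of same-numbered libraries correlated by -0.0047, 0.15 and 0.016 across genes, and those of differently numbered libraries by -0.14 to 0.11. With 3 libraries per group these values cannot show whether same-numbered cultures shared an isolation. Each of the 7 ratios described kept its direction under every alternative run for it. The rises of Cacng7, Scn4a and Scn7a rest on 1 to 101 reads per library.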
